A study of Saccharomyces cerevisiae BY4741 with 8 samples.

Results

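The genes described here are 57 genes of *Saccharomyces cerevisiae* for ribosome assembly and rRNA processing, chosen by their systematic names from the 6388 genes spotted on the arrays. The list holds the NOP, UTP, DBP, RRP and NOG genes and related genes for nucleolar proteins, and was placed in 12 groups by the role of the protein. Its rule uses names and no measured value, but the list was drawn up with earlier results of these data known. Each gene had 1 spot, so that 57 of 57 had a value on every array.

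Cells of strain BY4741 (*MAT*a, with deletions in *HIS3*, *LEU2*, *MET15* and *URA3*, which treated and untreated cells share) were grown to early log phase in synthetic complete medium with glucose, and each culture was then split. The treated part received 40 or 80 μg/ml KP1019, a ruthenium complex with anticancer activity, and the untreated part grew on without drug, for 3 h in both cases. There were 2 biological replicates per dose, and each was hybridized to 2 spotted arrays (A and B) with the dyes Cy3 and Cy5 exchanged between treated and untreated cDNA, which makes 8 arrays.

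Ribosome assembly starts in the nucleolus, where RNA polymerase I makes a long precursor rRNA. Small nucleolar RNPs (snoRNPs) modify this precursor, the small-subunit processome folds and cleaves its 5′ part, and a further set of factors builds the large subunit around its 3′ part. In yeast, most genes for these factors are known to be expressed together and to be repressed together when growth slows or stress begins.

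All values below are log2 ratios of treated over untreated signal, so that a value below 0 means less transcript signal in treated cells. A replicate value is the mean of its 2 dye-reversal arrays, and a gene is called higher or lower where limma's p, adjusted over all 6388 genes, was under 0.05. Because each ratio compares RNA of whole cultures, a change in the share of cells at one stage and a change in transcript per cell cannot be told apart. Of the strain's marker genes, the spot of *URA3* exceeded the blank spots with treated cDNA on 0 of 8 arrays and that of *LEU2* on 3 of 8. With untreated cDNA they did so on 1 and 5 of 8 arrays. The spots of *HIS3* and of *MET17* (the other name of *MET15*) did so on 8 of 8 with either cDNA. Genes of the other mating type (*STE3*, *MF(ALPHA)1* and *MF(ALPHA)2*) passed on 6 to 8 of 8, so that a spot above the blanks did not by itself show the transcript. Replicate 1 of 40 μg/ml stood apart from the others: the median absolute deviation of its log2 ratios over all genes was 0.68, against 0.32 to 0.39 in the other 3 replicates. On its array B the treated channel of 46 of the 57 genes was above the blank spots, while all 57 were above them in every other channel of the 8 arrays. Each test took 1 spread from both doses, so a p at 40 μg/ml also rested on the replicates of 80 μg/ml. The SD given beside a mean is that of the 2 replicates of that dose alone. In a setting with weighted replicates, those of 80 μg/ml had weights of 1.89 and those of 40 μg/ml had 0.53.

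At 40 μg/ml KP1019 13 of the 57 ribosome assembly genes fell and 2 rose. The lowest ratio was that of *NOP1*, the methyltransferase of the box C/D snoRNPs, which fell 2.58-fold, and it was followed by *CBF5*, the pseudouridine synthase of the box H/ACA snoRNPs, and *RRP5*, which acts on the precursors of both subunits. The genes that rose were *RRP3*, a small-subunit helicase, and *NOP10*, a further box H/ACA protein. The 13 lower genes are 22.8% of the list, beside 10.3% of all genes called lower at this dose, and the 2 higher genes are 3.51% of the list, beside 13.0% of all genes called higher. The median of the 57 genes was -0.27, beside -0.011 over all genes, with a range from -1.37 to 0.70 and with 40 genes (70.2%) below 0, beside 51.1% of all genes. The remaining 42 genes did not pass the adjusted p, and 28 of the 57 (49.1%) had an unadjusted p under 0.05 in limma, beside 38.4% of all genes. With median centring in place of loess the calls among the 57 were 0 higher and 15 lower, beside 13.6% of all genes higher and 12.6% lower. Without replicate 1 of 40 μg/ml they were 0 higher and 4 lower (*NOP1*, *CBF5*, *RRP5* and *DBP9*), and the lower genes were then 7.02% of the list, beside 7.26% of all genes lower and 9.64% higher. Without replicate 2 they were 8 higher and 27 lower, or 14.0% and 47.4% of the list, beside 24.1% of all genes higher and 23.8% lower.

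**Figure D1:**
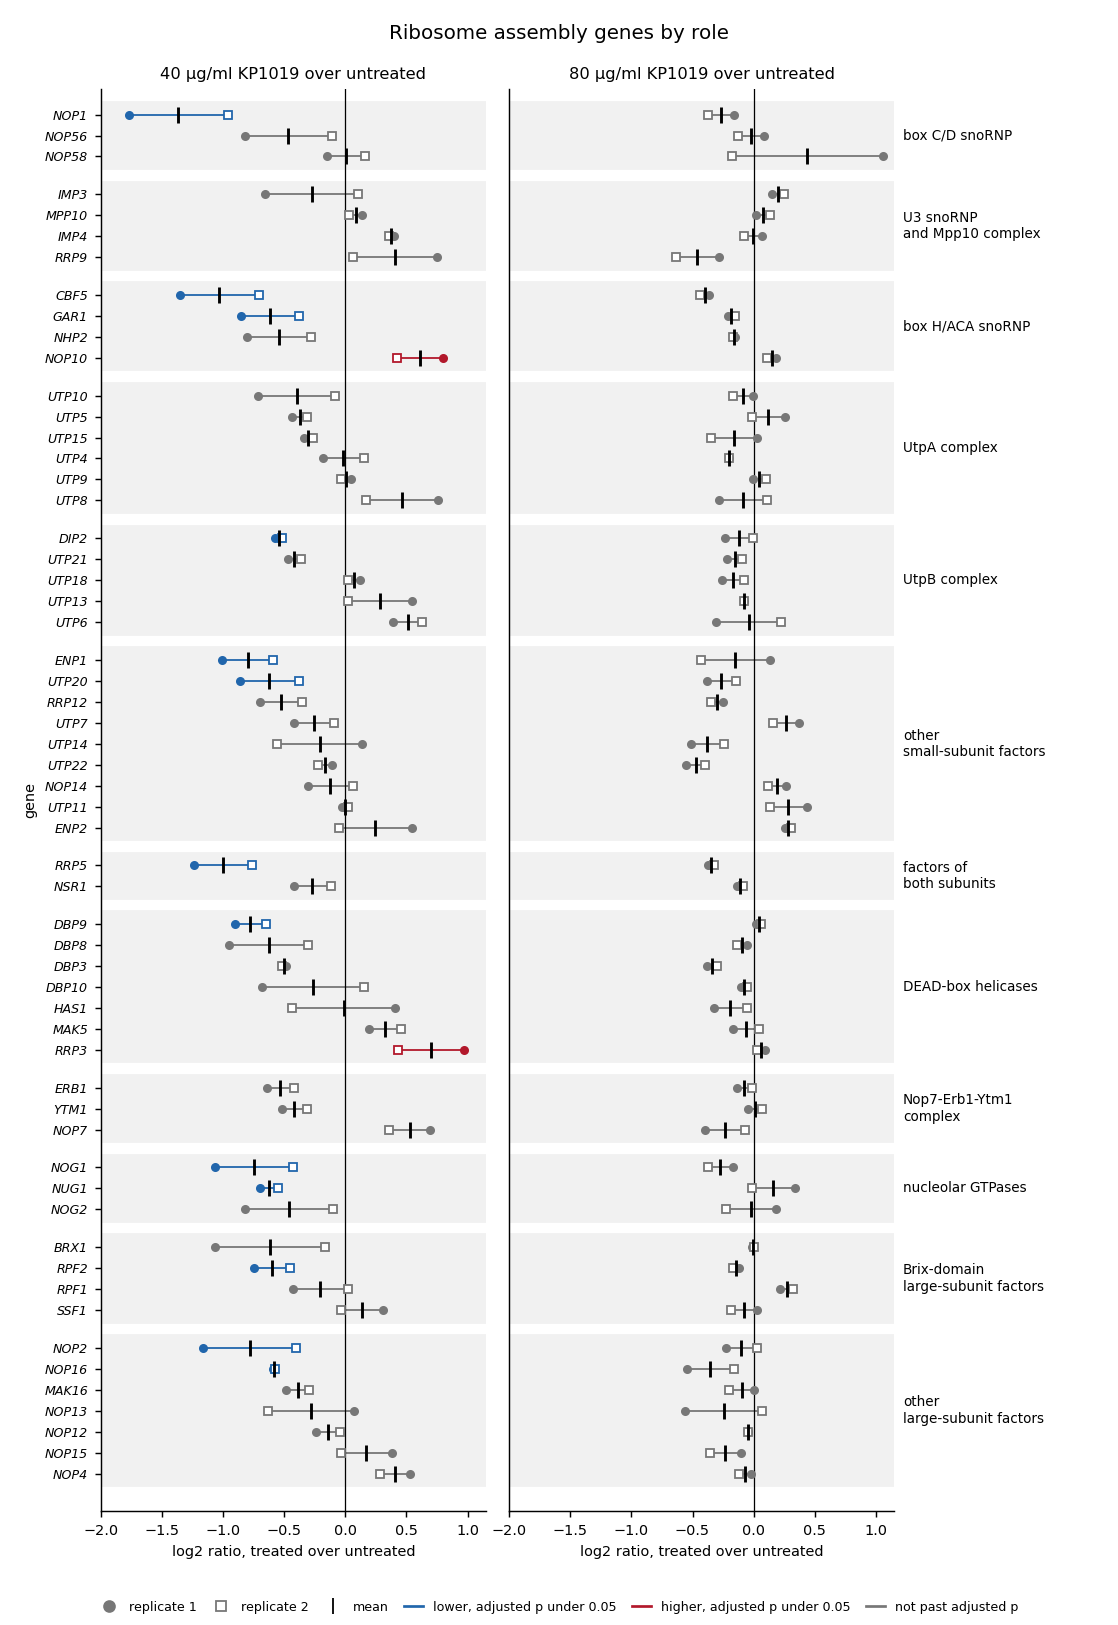
Log2 ratios of treated over untreated signal (x axis) for each of the 57 genes (rows, by role) at 40 μg/ml (left) and 80 μg/ml KP1019 (right), with circles for replicate 1, squares for replicate 2, ticks for the mean and colour for genes past limma's adjusted p. Lower calls lie in 9 of the 12 groups at 40 μg/ml, and no gene is coloured at 80 μg/ml.

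The list was lower than the array as a whole on each of the 8 arrays, and by more at 40 μg/ml. Its median was -0.48 and -0.29 on the arrays of replicate 1 of 40 μg/ml and -0.18 and -0.19 on those of replicate 2. On the arrays of 80 μg/ml it was -0.13 and -0.071 in replicate 1 and -0.15 and -0.033 in replicate 2. The medians over all genes lay between -0.031 and 0.0065. At 40 μg/ml 28 of the 57 genes (49.1%) were below 0 on all 4 arrays and 7 (12.3%) were above 0 on all 4, beside 1567 (24.5%) and 1599 of all 6388 genes. Of those 28 genes 15 did not pass the adjusted p. At 80 μg/ml 15 genes (26.3%) were below 0 on all 4 arrays and 5 (8.77%) were above 0, beside 22.0% and 22.9% of all genes. Over the 57 genes, the dye-reversal arrays correlated with r = 0.85 and 0.36 in replicates 1 and 2 of 40 μg/ml and with r = 0.23 and 0.17 in those of 80 μg/ml. Over all genes the values were 0.83 and 0.70 at 40 μg/ml and 0.41 and 0.66 at 80 μg/ml, in the same order. The arrays of 1 replicate share its RNA. These Pearson r values describe how closely the ratios of the genes were linearly related when the dyes were switched, and a few large ratios can weigh on them.

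**Figure D2:**
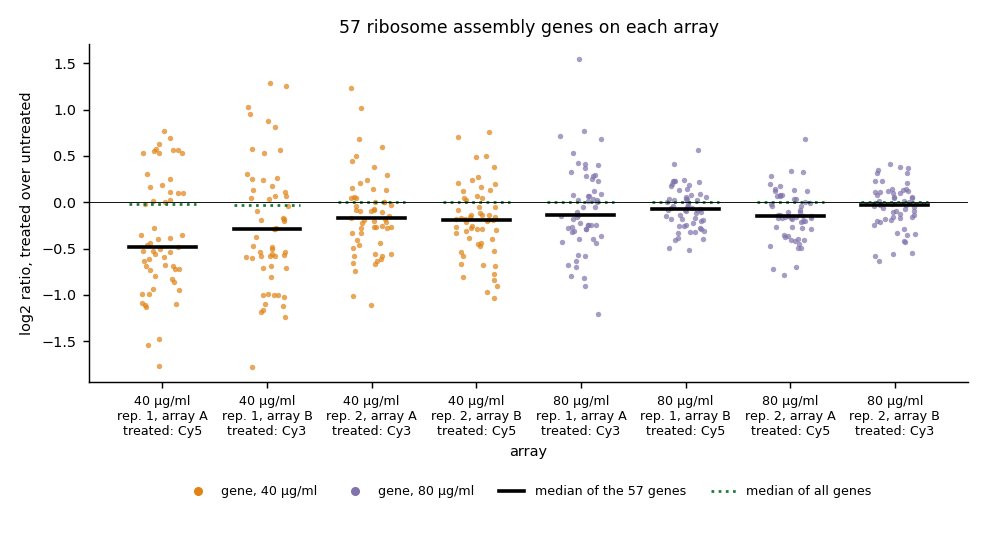
Log2 ratio of treated over untreated signal (y axis) of the 57 genes on each of the 8 arrays, with a black line at their median and a dotted line at the median of all genes. The black line lies below the dotted line on each array, from -0.48 on array A of replicate 1 at 40 μg/ml to -0.033 on array B of replicate 2 at 80 μg/ml.

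Box C/D snoRNPs add 2′-O-methyl groups to the precursor rRNA. Of the genes for 3 of their core proteins 1 fell at 40 μg/ml. *NOP1* (YDL014W), the yeast fibrillarin, had -1.77 and -1.78 on the arrays of replicate 1 and -1.02 and -0.90 on those of replicate 2. All 4 arrays were below 0 and the replicates averaged -1.37 ± 0.57 (SD, n = 2), with an adjusted p of 0.00869 in limma. This gene was the 64th lowest of all 6388 genes at 40 μg/ml. Its replicates at 80 μg/ml were -0.16 and -0.37, with a mean of -0.27 ± 0.15 (adjusted p = 0.591). *NOP56* (YLR197W) and *NOP58* (YOR310C) encode the paired scaffold proteins of the same particle. *NOP56* had replicate values of -0.82 and -0.11 at 40 μg/ml, where all 4 arrays were below 0, with a mean of -0.47 ± 0.50 and an adjusted p of 0.14. The values at 80 μg/ml were 0.085 and -0.12, with a mean of -0.020 ± 0.15 (adjusted p = 0.977). *NOP58* had values of -0.15 and 0.16 at 40 μg/ml, with a mean of 0.0086 ± 0.22 (adjusted p = 0.984). The higher dose gave 1.54 and 0.56 on the arrays of replicate 1 and -0.72 and 0.36 on those of replicate 2. Its mean of 0.44 ± 0.87 was the highest of the 57 genes at this dose, but it rested on replicate 1 and did not pass (adjusted p = 0.465).

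Box H/ACA snoRNPs convert uridines to pseudouridine. Of their 4 core proteins 2 fell, 1 rose and 1 did not pass at 40 μg/ml. *CBF5* (YLR175W), the catalytic subunit, had -1.55 and -1.16 on the arrays of replicate 1 and -0.44 and -0.97 on those of replicate 2. The replicates averaged -1.03 ± 0.46 (adjusted p = 0.0138), a 2.04-fold decrease. At the higher dose *CBF5* was also below 0 on 4 of 4 arrays, with -0.36 and -0.44 in the replicates and a mean of -0.40 ± 0.052 (adjusted p = 0.332). *GAR1* (YHR089C) fell, with -0.85 and -0.38 in the replicates and a mean of -0.61 ± 0.33 (adjusted p = 0.0452). Its values at 80 μg/ml were -0.21 and -0.16, with a mean of -0.18 ± 0.036 (adjusted p = 0.674). *NHP2* (YDL208W) was below 0 on all 8 arrays. It had -0.81 and -0.28 at 40 μg/ml (mean -0.54 ± 0.37, adjusted p = 0.0711) and -0.16 and -0.17 at 80 μg/ml (mean -0.16 ± 0.011, adjusted p = 0.724). *NOP10* (YHR072W-A), the smallest protein of the particle, had the opposite sign and rose, with 0.58 and 1.02 on the arrays of replicate 1 and 0.15 and 0.70 on those of replicate 2. The mean was 0.61 ± 0.26 at 40 μg/ml (adjusted p = 0.0396). Its replicates at 80 μg/ml were 0.18 and 0.11, with a mean of 0.15 ± 0.053 (adjusted p = 0.732). The calls of *GAR1* and *NOP10* were each lost in 8 of the 14 other settings tried, and that of *CBF5* in 1.

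The U3 snoRNP, which guides the early cleavages of the small-subunit precursor, and the Mpp10 proteins that bind it had no gene past the adjusted p. The U3-specific protein *RRP9* (YPR137W) had 0.75 and 0.064 at 40 μg/ml and -0.28 and -0.64 at 80 μg/ml. Its means of 0.41 and -0.46 lay on either side of 0 (adjusted p = 0.196 and 0.295). *MPP10* (YJR002W) averaged 0.085 at 40 μg/ml and 0.075 at 80 μg/ml. *IMP3* (YHR148W) had -0.27 and 0.20, and *IMP4* (YNL075W) had 0.38 and -0.0061, at 40 and 80 μg/ml in that order.

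UtpA binds the emerging precursor and UtpB joins it in the small-subunit processome. Of their 11 genes on the list, only *DIP2* of UtpB passed at 40 μg/ml. In UtpA the means at 40 μg/ml ran from -0.40 to 0.46, with a median of -0.16. From the lowest, they were -0.40 for *UTP10* (YJL109C), -0.37 for *UTP5* (YDR398W), -0.30 for *UTP15* (YMR093W), -0.017 for *UTP4* (YDR324C), 0.0073 for *UTP9* (YHR196W) and 0.46 for *UTP8* (YGR128C). The same 6 genes lay at 80 μg/ml between -0.20 (*UTP4*) and 0.12 (*UTP5*). In UtpB *DIP2* (YLR129W) had -0.57 and -0.52 at 40 μg/ml, with a mean of -0.54 and an adjusted p of 0.0488, and a mean of -0.12 at 80 μg/ml. The treated channel of its spot was above the blanks on 3 of the 4 arrays of 40 μg/ml. The other UtpB means at 40 μg/ml were -0.42 for *UTP21* (YLR409C), 0.071 for *UTP18* (YJL069C), 0.29 for *UTP13* (YLR222C) and 0.51 for *UTP6* (YDR449C). *UTP6* was above 0 on all 4 arrays, with an adjusted p of 0.0903, so that the same complex held genes on both sides of 0. All 5 UtpB means at 80 μg/ml were below 0, between -0.17 (*UTP18*) and -0.043 (*UTP6*).

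Among 9 other small-subunit factors 2 fell at 40 μg/ml. *ENP1* (YBR247C), which stays with the small-subunit precursor until the cytoplasm, had -1.0 and -0.59 in the replicates, with 4 of 4 arrays below 0. Its mean was -0.80 ± 0.29 (adjusted p = 0.0299). The values at 80 μg/ml were 0.13 and -0.43, with a mean of -0.15 ± 0.40 (adjusted p = 0.777), and its arrays ran from -0.79 to 0.76. *UTP20* (YBL004W), a large scaffold protein, had -0.86 and -0.38 at 40 μg/ml, with a mean of -0.62 (adjusted p = 0.0479), and a mean of -0.26 at 80 μg/ml. *RRP12* (YPL012W), an export factor of both subunits, was below 0 on all 8 arrays without passing, and averaged -0.53 at 40 μg/ml and -0.30 at 80 μg/ml. The processome protein *UTP22* (YGR090W) was below 0 on all 8 arrays as well. Its replicates were -0.11 and -0.22 at 40 μg/ml and -0.55 and -0.40 at 80 μg/ml, and its mean of -0.48 was the lowest of the 57 genes at 80 μg/ml and the only one there with an unadjusted p under 0.05 (0.0195, adjusted p = 0.169). *UTP14* (YML093W), which activates a helicase of the processome, averaged -0.21 at 40 μg/ml and -0.38 at 80 μg/ml. The other 4 genes of the group had positive means at 80 μg/ml. These were 0.26 for *UTP7* (YER082C), 0.28 for *UTP11* (YKL099C), 0.19 for *NOP14* (YDL148C) and 0.28 for *ENP2* (YGR145W), beside -0.26, -0.0043, -0.12 and 0.25 at 40 μg/ml in the same order.

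The next group, labelled as factors of both subunits, held the genes for a large RNA-binding protein, Rrp5, and for the nucleolin-like Nsr1. *RRP5* (YMR229C) fell at 40 μg/ml, with -1.47 and -1.0 on the arrays of replicate 1 and -0.75 and -0.77 on those of replicate 2. The mean was -1.0 ± 0.34 (adjusted p = 0.0118), a 2.00-fold decrease. *RRP5* was below 0 on 4 of 4 arrays at 80 μg/ml too, with -0.38 and -0.32 in the replicates and a mean of -0.35 ± 0.037 (adjusted p = 0.356). *NSR1* (YGR159C) was below 0 on all 8 arrays with small values. Its replicates were -0.42 and -0.11 at 40 μg/ml (mean -0.27 ± 0.22, adjusted p = 0.279) and -0.14 and -0.089 at 80 μg/ml (mean -0.11 ± 0.037, adjusted p = 0.798).

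The 7 DEAD-box RNA helicases remodel the pre-ribosomes, and at 40 μg/ml they held 1 gene that fell and 1 that rose. *DBP9* (YLR276C), a large-subunit helicase, had -1.10 and -0.71 on the arrays of replicate 1 and -0.26 and -1.04 on those of replicate 2. Its mean was -0.78 ± 0.18 (adjusted p = 0.0173), and the treated channel of its spot was above the blanks on 3 of those 4 arrays. Its replicates at 80 μg/ml were 0.022 and 0.063, with a mean of 0.043 ± 0.029 (adjusted p = 0.928). *RRP3* (YHR065C), a small-subunit helicase, had 0.69 and 1.25 on the arrays of replicate 1 and 0.38 and 0.49 on those of replicate 2. Its mean of 0.70 ± 0.38 was the highest of the 57 genes at 40 μg/ml (adjusted p = 0.0335), a 1.63-fold increase. The replicates at 80 μg/ml were 0.088 and 0.025, with a mean of 0.057 ± 0.045 (adjusted p = 0.919). The call of *RRP3* was lost without replicate 1 of 40 μg/ml, where its mean was 0.43, and in 3 other settings. The helicases that did not pass had means at 40 μg/ml of -0.63 for *DBP8* (YHR169W), -0.50 for *DBP3* (YGL078C), -0.26 for *DBP10* (YDL031W), -0.013 for *HAS1* (YMR290C) and 0.33 for *MAK5* (YBR142W). *HAS1* had replicates of opposite sign, 0.41 and -0.43. These 5 genes lay at 80 μg/ml between -0.34 (*DBP3*) and -0.062 (*MAK5*).

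Nop7, Erb1 and Ytm1 form a complex of the early large-subunit precursor, and its genes had means on both sides of 0 at 40 μg/ml. *ERB1* (YMR049C) and *YTM1* (YOR272W) were below 0 on all 4 arrays, with means of -0.53 and -0.42 (adjusted p = 0.0525 and 0.102). *NOP7* (YGR103W) had 0.70 and 0.36 in the replicates and a mean of 0.53 (adjusted p = 0.0706), and 3 of its 4 arrays were above 0. Its dye-reversal arrays lay far apart, with 0.10 and 1.29 in replicate 1 and 1.02 and -0.30 in replicate 2. None passed. The means at 80 μg/ml were -0.23 for *NOP7*, -0.078 for *ERB1* and 0.012 for *YTM1*.

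Of the genes for 3 nucleolar GTPases of large-subunit assembly 2 fell at 40 μg/ml. *NOG1* (YPL093W) had -1.06 and -0.43, with a mean of -0.74 (adjusted p = 0.0343), and *NUG1* (YER006W) had -0.70 and -0.55, with a mean of -0.62 ± 0.11 (adjusted p = 0.0378). Both were below 0 on 4 of 4 arrays. *NOG1* had a mean at 80 μg/ml of -0.27, and *NUG1* had 0.34 and -0.012, with a mean of 0.16 ± 0.25 (adjusted p = 0.704). *NOG2* (YNR053C) averaged -0.46 at 40 μg/ml and -0.023 at 80 μg/ml.

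Of the 4 genes grouped as Brix-domain factors of the large subunit, which encode related rRNA-binding proteins, 1 fell at 40 μg/ml. *RPF2* (YKR081C), which helps to bring the 5S particle into the precursor, had -0.75 and -0.45, with a mean of -0.60 (adjusted p = 0.0387), and a mean of -0.14 at 80 μg/ml. *BRX1* (YOL077C) had a lower mean of -0.62 at 40 μg/ml without passing (adjusted p = 0.0871), and its replicates lay farther apart, with -1.07 and -0.17. Its mean at 80 μg/ml was -0.0066. *RPF1* (YHR088W) had -0.20 at 40 μg/ml and 0.27 at 80 μg/ml. *SSF1* (YHR066W) had 0.14 and -0.080, and its values are uncertain because a near-identical paralog, *SSF2*, may hybridize to the same spot.

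Among 7 other large-subunit factors 2 fell at 40 μg/ml. *NOP2* (YNL061W), an rRNA cytosine methyltransferase, had -1.17 and -0.40, with a mean of -0.78 ± 0.54 (adjusted p = 0.0376) and 4 of 4 arrays below 0. Its replicates at 80 μg/ml were -0.23 and 0.024, with a mean of -0.10 ± 0.18 (adjusted p = 0.87). *NOP16* (YER002W) had nearly equal replicates of -0.59 and -0.57, with a mean of -0.58 (adjusted p = 0.0466), and a mean of -0.35 at 80 μg/ml. It was below 0 on all 8 arrays. The other means at 40 μg/ml were -0.39 for *MAK16* (YAL025C), -0.28 for *NOP13* (YNL175C), -0.14 for *NOP12* (YOL041C), 0.17 for *NOP15* (YNL110C) and 0.41 for *NOP4* (YPL043W), and none of them passed. All 7 means were below 0 at 80 μg/ml, between -0.35 (*NOP16*) and -0.047 (*NOP12*).

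At 80 μg/ml KP1019 none of the 57 genes passed the adjusted p in either direction, beside 1.41% of all genes called lower and 2.11% called higher. By unadjusted p under 0.05 in limma the count was 1 (1.75%), beside 18.5% of all genes. The median of the list was -0.087, beside -0.0026 over all genes, with a range from -0.48 (*UTP22*) to 0.44 (*NOP58*) and with 42 genes (73.7%) below 0, beside 50.3% of all genes. Thus about as many genes lay below 0 as at 40 μg/ml, at smaller values. With each dose fitted alone, 3 genes fell at 80 μg/ml, *RRP9*, *CBF5* and *UTP22*, which is 5.26% of the list, beside 641 of all 6388 genes called lower in that fit. Leaving out a replicate of 40 μg/ml leaves the test at 80 μg/ml the same as in that fit, so it is no further check. In that fit the share of the list was not above that of all genes.

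The doses were then compared with each other. In the test of 40 minus 80 μg/ml none of the 57 genes passed, beside 0.141% of all genes (9 of 6388), and 7 (12.3%) had an unadjusted p under 0.05 in limma, beside 20.9% of all genes. Of these 7, 4 had the lower ratio at 40 μg/ml and 3 had the higher. The 3 smallest p were those of *NOP1*, *DBP9* and *NUG1*. *NOP1* differed by -1.10 (adjusted p = 0.145), *DBP9* by -0.82 (adjusted p = 0.145) and *NUG1* by -0.79 (adjusted p = 0.161). *RRP9* differed by 0.87, in the other direction (adjusted p = 0.176). The mean was lower at 40 than at 80 μg/ml for 39 of the 57 genes, and the median difference was -0.26. In all, 31 genes were below 0 at both doses and 6 were above 0 at both. These counts, and that of the 39 genes, were not made over all genes and cannot show a trait particular to the list. At each dose alone, 51.1% (40 μg/ml) and 50.3% (80 μg/ml) of all genes were below 0. Across the 57 genes the means at the 2 doses correlated with r = 0.27, and across all genes with r = 0.47, where genes are not independent replicates. A call at 40 and none at 80 μg/ml does not show that the doses differ, and without replicate 2 of 40 μg/ml 27 of the 57 genes (47.4%) passed the test of the difference, beside 36.6% of all genes. The array files of each dose have names of a pattern of their own, and dose and set of arrays cannot be told apart.

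**Figure D3:**
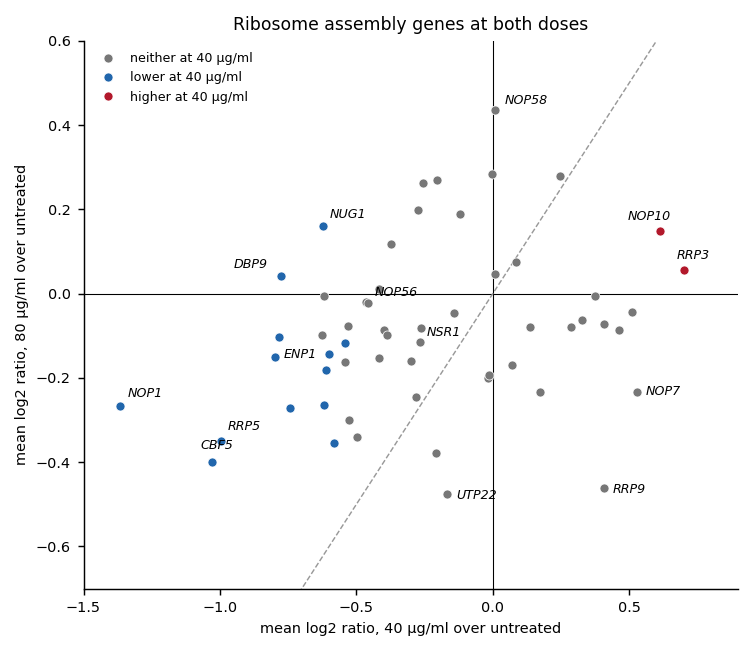
Mean log2 ratio at 40 μg/ml (x axis) against that at 80 μg/ml (y axis) for the 57 genes, coloured by the call at 40 μg/ml, with a dashed line where both are equal. *NOP1*, *CBF5* and *RRP5* lie farthest to the left, at -1.37 to -1.0 on the x axis and -0.40 to -0.27 on the y axis.

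The methods of the study asked for at least a 3.5-fold change with close dye-reversal arrays in both replicates. Of the 57 genes 0 met these criteria at either dose, beside 0.376% (40 μg/ml) and 0.235% (80 μg/ml) of all genes. With a 2-fold threshold in place of 3.5-fold the count was again 0 at both doses.

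Genes outside the list that serve the same pathway were read the same way at 40 μg/ml, beside the 10.3% of all genes that were lower and the 13.0% that were higher. Among 35 other small-subunit factors 4 fell (11.4%) and 3 rose (8.57%), shares near those of all genes, and their median was -0.10. The genes that fell were *BMS1*, a GTPase of the processome (-0.88 ± 0.46), *FCF1* (-0.80 ± 0.063), the rRNA acetyltransferase gene *KRE33* (-0.75 ± 0.019) and *RRP7* (-0.74 ± 0.37). Those that rose were *NOB1*, the endonuclease of the last small-subunit cleavage (1.00 ± 0.47), the helicase gene *DHR2* (0.71 ± 0.30) and the kinase gene *RIO1* (0.75 ± 0.20). The arrays of *RIO1* did not share a direction, with 1.76 and 0.021 on the arrays of replicate 1 and -0.64 and 1.87 on those of replicate 2. Among 40 other large-subunit factors 5 fell, again a share near that of all genes, and 1 rose (2.50%), with a median of -0.069. *RLP24* (-1.07 ± 0.82), *PWP1* (-0.97 ± 0.36), *MRT4* (-0.96 ± 0.49), *NIP7* (-0.89 ± 0.53) and *BUD20* (-0.86 ± 0.41) fell, and *CGR1* (0.58 ± 0.18) rose. The treated channel of *BMS1*, *KRE33*, *PWP1*, *NIP7* and *CGR1* was above the blanks on 3 of the 4 arrays of 40 μg/ml. For *CGR1* the same held in the untreated channel. The arrays of *KRE33* ran from -1.10 to -0.43 and those of *CGR1* from 0.0011 to 1.06. Of 14 genes for RNA polymerase I and its initiation factors 2 fell (14.3%), *RPA190* for the largest subunit (-0.58 ± 0.25) and *RPA43* (-0.63 ± 0.18), and the median was -0.29. The 132 ribosomal protein genes had 66 lower genes (50% of them), 1 higher gene and a median of -0.60 at 40 μg/ml, beside the median of -0.27 for the 57 assembly genes. No gene of these groups passed at 80 μg/ml, where the medians lay between -0.047 and 0.056.

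**Figure D4:**
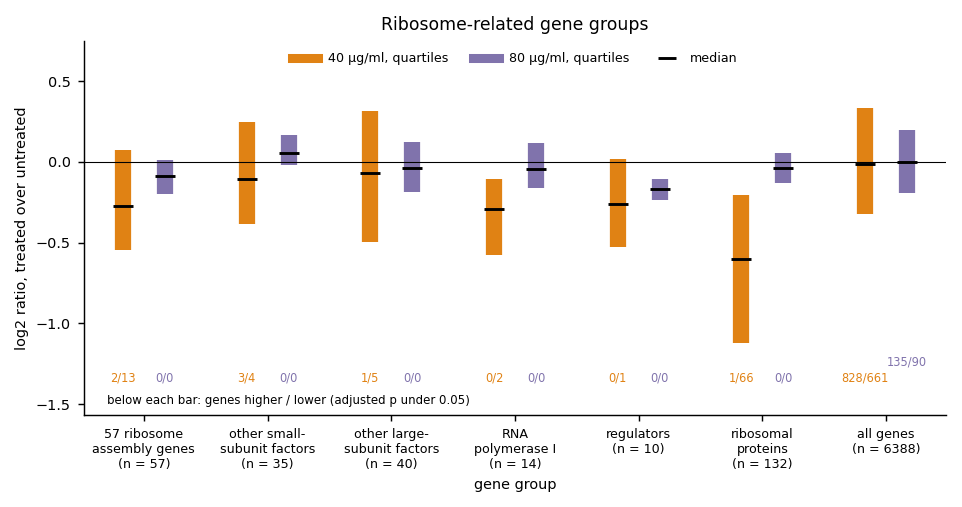
Quartiles (bars) and median (black line) of the log2 ratio of treated over untreated signal (y axis) by gene group, at 40 and 80 μg/ml, with the number of genes higher and lower by limma's adjusted p under each bar. At 40 μg/ml the medians are -0.27 for the 57 assembly genes and -0.60 for the ribosomal protein genes, beside -0.011 for all genes.

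The calls of single genes at 40 μg/ml were followed through 14 other settings, of which 10 changed the processing or the model and 4 left out a replicate. *NOP1* passed in 14 of 14, *CBF5* and *RRP5* in 13, and each of the 15 called genes kept its direction in every setting in which it had a value. *DBP9* passed in 11 of the 13 settings that gave it a value and *ENP1* in 11 of 14. *NOG1*, *NOP2* and *RRP3* passed in 10, *NUG1* and *RPF2* in 8, *GAR1*, *NOP10* and *NOP16* in 6, *UTP20* in 4 and *DIP2* in 3 of 13. With the local background subtracted, only *NOP1* of the 57 passed. In that setting 2.39% of all genes were called lower and 4.16% higher.

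**Figure D5:**
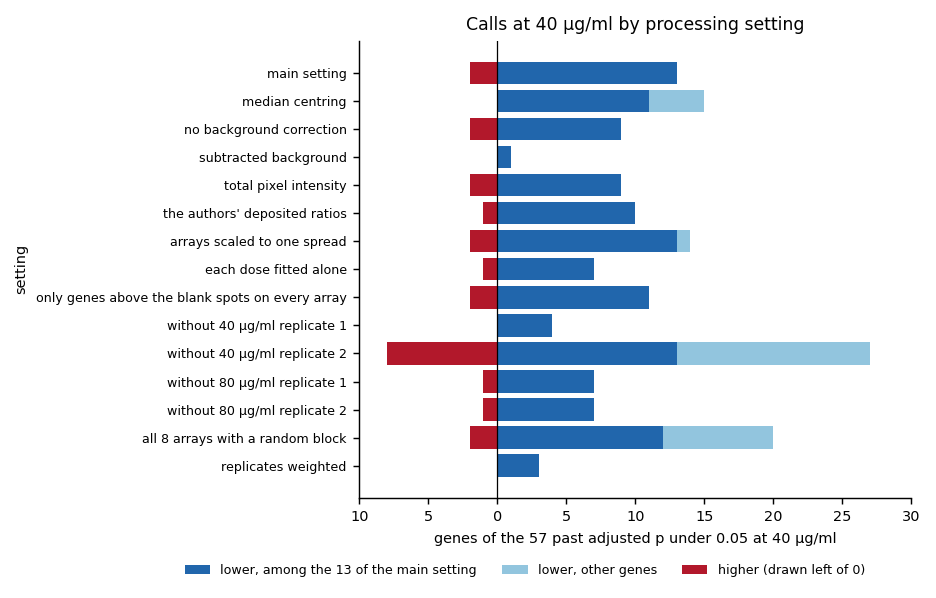
Number of the 57 genes past limma's adjusted p at 40 μg/ml (x axis) in the setting of the text (top bar) and in 14 others (rows), lower to the right of 0 and higher to the left. The lower calls number 13 in the top bar, 4 without replicate 1 and 27 without replicate 2 of 40 μg/ml.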

How the data were processed

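Transcript levels were measured on 8 spotted 2-colour arrays (2 doses of KP1019, 2 biological replicates per dose, 2 dye-reversal arrays per replicate). Images were quantified by the authors with MagicTool, and they deposited, per array, foreground and background intensity in both channels for 6688 features, without normalization. They also deposited a table whose values are a score, the red over green ratio of total signal as a signed fold change, times 1 factor per array, with no stated method of normalization, and this was used only as an alternative. The genome build is not given in the sources used here, and no coordinates were used.

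Mean intensities were corrected with normexp (offset 50) and loess-normalized within each array, without weight on 85 blank and 23 control spots, with limma 3.58.1 (R 4.3.3). Ratios were turned to treated over untreated, and dye-reversal arrays were averaged to 4 replicate values per gene. Each dose was tested against 0, and 40 minus 80 μg/ml, with lmFit and eBayes (two-sided, both doses sharing 1 spread, 2 residual degrees of freedom, Benjamini-Hochberg adjustment over 6388 genes, adjusted p under 0.05). The calculations were tested on simulated data. Symbols and neighbours came from RefSeq, which matched 5849 of 6388 names. A spot counted as above the blanks at 3 median absolute deviations over their median.

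The 57 genes, their 12 groups and the lists of other pathway genes were chosen with earlier results of these data known. Full values were given for the snoRNP core genes and *NSR1*, for up to 6 called genes per dose and direction with the largest change on 4 of 4 arrays, and for the 3 genes with the smallest p between doses. Other genes are given by their means, and those with replicate values or a p beside them (*RRP9*, *UTP22*, *NOP7*, *BRX1*, *HAS1*, *NOG1*, *RPF2*, *NOP16*, *DIP2*, *UTP20*, *UTP6*, *ERB1* and *YTM1*) were chosen after their values were seen. The other settings were median centring, no or subtracted background, total pixel intensity, the deposited ratios, scaled arrays, each dose alone, bright genes only, a left-out replicate, a random block, weighted replicates and a replicate block.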

Additional observations from a re-analysis of the deposited data

How the results depend on the processing

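The median of the 57 genes was below 0 at both doses in every setting tried. Without 1 replicate it lay between -0.43 and -0.11 at 40 μg/ml and between -0.10 and -0.083 at 80 μg/ml. At 80 μg/ml it was -0.067 with median centring, -0.11 with subtracted background or with arrays scaled to 1 spread, and -0.025 with the authors' deposited ratios. The medians over all genes at 80 μg/ml were -0.0098 with median centring and -0.0059 with subtracted background. They were 3.5e-05 with scaled arrays and 0.055 with the deposited ratios. Of the 2 genes higher at 40 μg/ml, 0 passed with median centring, subtracted background or weighted replicates, and 1 with the deposited ratios or each dose fitted alone. In place of 13 genes lower at 40 μg/ml, there was 1 with subtracted background, 3 with weighted replicates, 7 with each dose fitted alone, and 20 with all 8 arrays in a fit with the replicate as a random block, beside 2.39%, 4.52%, 8.89% and 15.5% of all genes. Genes lower at 80 μg/ml numbered 3 with scaled arrays or each dose fitted alone and 2 with weighted replicates, in place of 0. With each dose fitted alone that share of the list was not above the share of all genes, as given above. For scaled arrays and weighted replicates no share of all genes is set beside the counts. Without 1 replicate the counts ran from 0 to 8 (higher at 40 μg/ml), from 4 to 27 (lower at 40 μg/ml), from 0 to 3 (lower at 80 μg/ml) and from 0 to 27 (differing between doses). The ends at 40 μg/ml and between doses were those without replicate 1 and without replicate 2 of 40 μg/ml, and without either replicate of 80 μg/ml 7 genes were lower at 40 μg/ml. These fits took the spread of the lone replicate from the other dose. For the dose left whole they gave the same test as each dose fitted alone. Calls over all genes moved with the setting too, so a count given here without their share is not a result about the list. The cause of these shifts was not tested.

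Replicate numbers pair the doses only by number. The deviations of same-numbered replicates correlated with r = -0.14 over all genes. With the replicate block 1 gene differed between doses (*NOP1*), in place of 0. With the crossed replicate block, chosen after seeing the data, 3 did. No share of all genes is set beside the count of the crossed block, so it is not a result about the list. With scaled arrays and with the random block 1 gene differed (*RRP9* and *NOP1*, each in 1 of these settings). Of all genes 6.89% differed with the replicate block, 9.35% with scaled arrays and 6.17% with the random block. Of the 99 other pathway genes, 4 were higher and 12 lower at 40 μg/ml, beside 13.0% and 10.3% of all genes. They became 0 and 1 with subtracted background, where fewer of all genes were called too. At 80 μg/ml 0 and 0 became 8 and 7 with scaled arrays. No share of all genes is set beside these last counts, so they are not a result about the pathway. With 2 replicates per dose and 11 genes near the blank signal in 1 treated channel, the number of arrays and their brightness limit what can be called.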

Other observations

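Of 10 genes for regulators of ribosome biogenesis genes 1 was lower by limma's adjusted p at 40 μg/ml, beside 10.3% of all genes, and 0 passed at 80 μg/ml. *DOT6*, a repressor of ribosome assembly genes, fell at 40 μg/ml, with -0.78 and -0.63 in the replicates and a mean of -0.70 ± 0.11 (SD, n = 2, adjusted p = 0.0301), and had a mean of -0.25 at 80 μg/ml. Its paralog *TOD6* averaged -0.15 at 40 μg/ml and 0.62 at 80 μg/ml (adjusted p = 0.626 and 0.151). *RAP1*, which encodes an activator of ribosomal protein genes, averaged 0.15 and -0.69 (adjusted p = 0.596 and 0.0981), with 4 of 4 arrays below 0 at 80 μg/ml. The activator gene *SFP1* had -0.57 and -0.18 (adjusted p = 0.0583 and 0.69), and the kinase gene *SCH9* had -0.63 and -0.16 (adjusted p = 0.0826 and 0.786), at 40 and 80 μg/ml in that order.

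The 57 genes held 2 pairs of direct neighbours, both on chromosome VIII. *RRP3* and *SSF1*, which are transcribed away from each other, had means of 0.70 and 0.14 at 40 μg/ml and 0.057 and -0.080 at 80 μg/ml. *RPF1* and *GAR1*, which are transcribed towards each other, had -0.20 and -0.61 at 40 μg/ml and 0.27 and -0.18 at 80 μg/ml.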
